A study of Mus musculus with 11 samples.

Results

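The BCL2 family decides whether a cell passes the mitochondrial point of no return in apoptosis, and 10 of its genes were followed in T-cells of a mouse model of T-cell prolymphocytic leukemia. The genes were the guardians Bcl2, Bcl2l1 and Mcl1, the effectors Bax and Bak1, and the BH3-only genes Bcl2l11, Bid, Bbc3, Pmaip1 and Bad, chosen by name as core members of the family. A row of its own was found for 9 of these 10 among the 19937 genes tested, and Bax was not analysed here. The arrays comprised 5 from the exponential phase and 3 from the chronic phase of Lckpr-TCL1A+/- mice, which carry human TCL1A under the proximal Lck promoter in the T-lineage, and 3 from age-matched C57BL/6 (wild-type) mice. The exponential phase was set at over 80% tumor cells in blood and over 90% in spleen, with an average age of 15 months and a blood lymphocyte doubling time of 12 days (SEM 0.8). The chronic phase was set at 30 to 70% tumor cells in both, with an average age of 12 months. Leukemia RNA came from splenic T-cells enriched for CD8+, whereas each wild-type array held RNA of CD3+ pan-T-cells pooled from 3 spleens. Genotype, cell selection and pooling therefore cannot be told apart in any comparison with wild type. In bulk RNA, fewer cells of a type and less RNA per cell cannot be told apart either.

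In the healthy cell, guardian proteins hold the effectors BAX and BAK in check on the outer mitochondrial membrane. BH3-only proteins report stress such as cytokine withdrawal or DNA damage, bind the guardians through a short helix, and set the effectors free to release cytochrome c. In T-cells BCL2 and MCL1 sustain resting and memory cells, BIM (encoded by Bcl2l11) ends immune responses, and the p53 pathway acts through PUMA (Bbc3) and NOXA (Pmaip1).

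Values are log2 RMA values, on which a difference of 1 is a doubling, and the median of all rows was 2.30. The arrays resembled each other, with correlations of 0.944 to 0.969 within groups and 0.929 to 0.966 between them. Exponential replicate 4 stood apart from the other exponential arrays and did not show the CD8+ enrichment stated for leukemia RNA. Its Cd8a value was 2.96, whereas the remaining exponential arrays gave 7.94 to 8.20, its Cd4 value of 5.18 exceeded every other array, and its mean over 17 cell-cycle genes was the highest at 5.92. The mean over 8 T-cell markers was 7.10 in this array, 7.14 to 7.29 in the remaining exponential arrays, 6.74 to 7.29 in chronic arrays and 7.35 to 7.85 in wild type, so every leukemia array lay below every wild-type pool. Of these 8 markers 5 were lower in all leukemias at an unadjusted p under 0.05, and limma called 0. The differences that this array moved most are given with and without it.

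Bcl2, Bcl2l11 and Bak1 were the members that lay above every wild-type array in all leukemias, apart from exponential replicate 4 for Bcl2 and Bcl2l11. The 250 bases before the start of each gene are shown because these members had the largest differences over all leukemias. They come from RefSeq promoters of mouse build GRCm38.p6, read 5′ to 3′ on the gene's strand, with matches of GTAAACA (the FOXO core motif) and GGGCGG (the GC box) on either strand in capitals. The Bcl2 window lies at chr1:106714291-106714540 on the minus strand, the Bcl2l11 window at chr2:128125788-128126037 on the plus strand and the Bak1 window at chr17:27028628-27028877 on the minus strand.
Bcl2: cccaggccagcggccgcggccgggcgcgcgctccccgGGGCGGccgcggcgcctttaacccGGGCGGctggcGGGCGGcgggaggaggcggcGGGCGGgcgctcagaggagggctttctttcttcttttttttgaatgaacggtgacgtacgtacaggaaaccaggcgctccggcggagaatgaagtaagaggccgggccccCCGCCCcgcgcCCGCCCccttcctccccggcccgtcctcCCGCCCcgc
Bcl2l11: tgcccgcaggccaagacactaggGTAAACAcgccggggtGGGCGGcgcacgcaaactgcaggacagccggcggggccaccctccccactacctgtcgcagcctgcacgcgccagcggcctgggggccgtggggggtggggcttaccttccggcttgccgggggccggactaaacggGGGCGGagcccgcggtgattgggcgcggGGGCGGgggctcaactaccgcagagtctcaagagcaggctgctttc
Bak1: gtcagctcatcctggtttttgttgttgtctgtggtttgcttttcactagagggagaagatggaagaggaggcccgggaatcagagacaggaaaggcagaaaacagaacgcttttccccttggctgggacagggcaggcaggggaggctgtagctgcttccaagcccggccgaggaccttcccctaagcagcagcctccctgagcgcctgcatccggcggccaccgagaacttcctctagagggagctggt

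The Bcl2 and Bcl2l11 windows were rich in G and C (74.8% and 72.0%), with 7 and 3 GC box matches, while the Bak1 window held 58.4% G and C and 0 GC boxes. One FOXO core match was found, beginning 227 bases before the start of Bcl2l11. Of the 15 windows of the 9 members with an entry, 2 held a FOXO core (Bcl2l11 and Bbc3), against 3.17% of all 32851 windows of this length. A GC box stood in 10 of the 15, against 32.74% of all windows. The E-box CACGTG was found in 2 (Bax and Bbc3; 6.02% of all windows) and the STAT motif TTCNNNGAA in 0 (7.02% of all windows). Both strands were searched, and a match describes letters, not a binding site. No window was used for Pmaip1.

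Among the guardians, Bcl2 showed the largest difference. It read 6.74, 7.58, 7.13, 5.41 and 7.19 in exponential replicates 1 to 5, 6.98, 7.17 and 6.53 in chronic replicates 1 to 3, and 6.17, 5.68 and 5.33 in wild-type replicates 1 to 3. Of the 8 leukemia arrays 7 exceeded the highest wild-type pool, and exponential replicate 4 lay inside the wild-type range. The mean was 6.81 ± 0.84 (SD, n = 5) in the exponential phase and 5.73 ± 0.42 (SD, n = 3) in wild type, a log2 difference of 1.08 (SE 0.43) or 2.11-fold. In the chronic phase the mean was 6.89 ± 0.33 (SD, n = 3), a log2 difference of 1.17 (SE 0.25) or 2.24-fold from the same wild-type pools. The limma test over all genes did not call either difference (adjusted p = 0.439 for exponential and 0.114 for chronic), nor that of all leukemias against wild type (1.11, SE 0.36, adjusted p = 0.240).

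**Figure D1:**
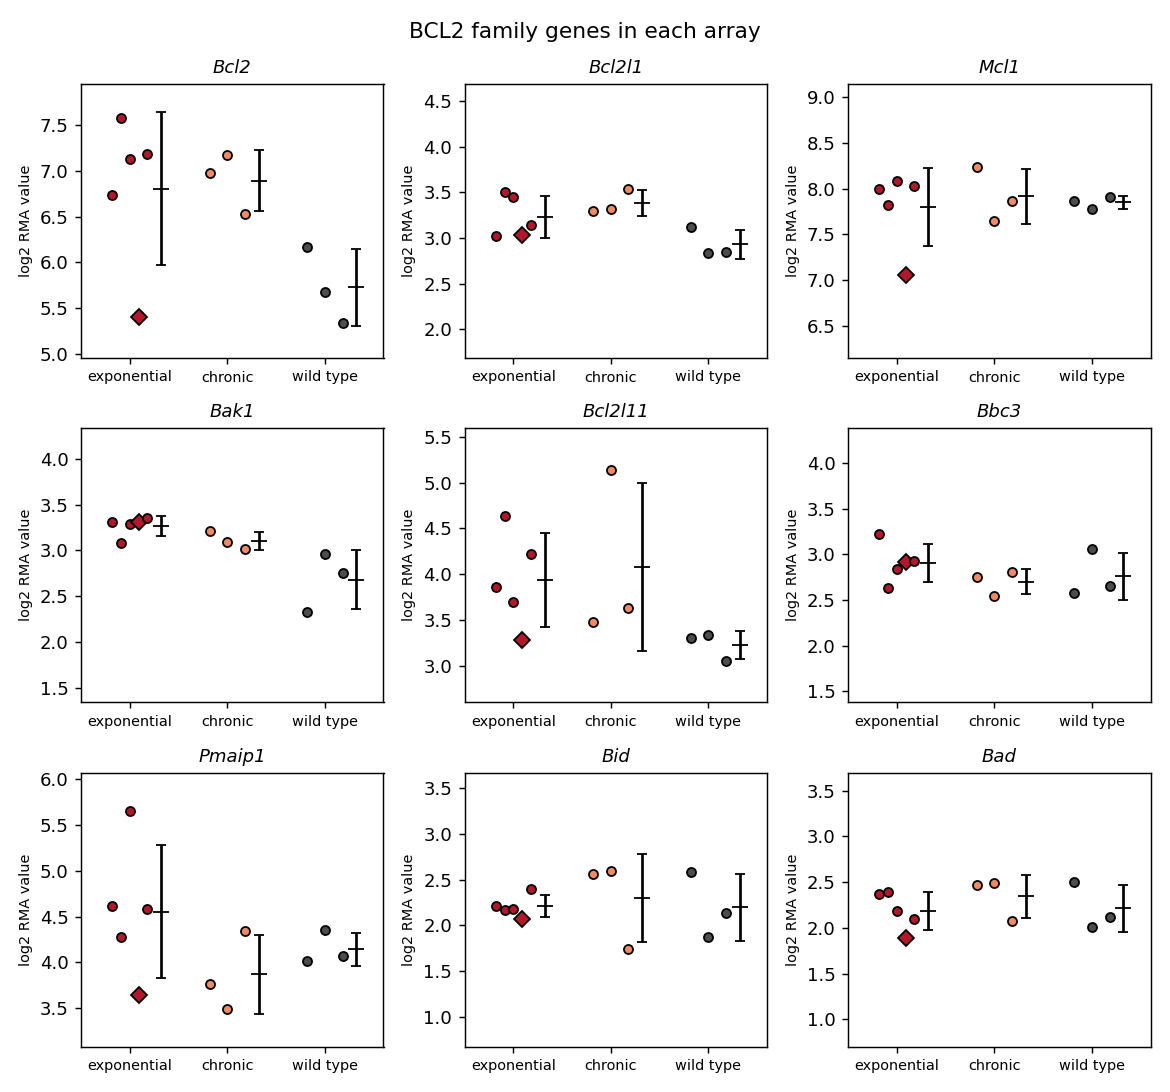
Log2 RMA values (vertical axes, each spanning 3 units) of the 9 measured BCL2 family genes in every array, grouped on the horizontal axes as exponential (n = 5), chronic (n = 3) and wild type (n = 3); bars give the mean and SD, and the diamond is exponential replicate 4. Bcl2 lay between 6.53 and 7.58 in 7 leukemia arrays and at 5.41 in exponential replicate 4, against 5.33 to 6.17 in wild type.

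The Bcl2 call turned on this array. Without exponential replicate 4 the log2 difference was 1.43 between the exponential phase and wild type (adjusted p = 0.0202) and 1.32 between all leukemias and wild type (adjusted p = 0.0115), and Bcl2 was called higher by limma in both. Bcl2 was then the single called member of 9, where 1.11% and 1.37% of all genes were called. Leaving out any other array gave adjusted p between 0.2285 and 0.521 for all leukemias. Over the alternative settings that left no array out by name, adjusted p for all leukemias ranged between 0.0249 and 0.424. The lowest came from the replicate block, where exponential replicates 4 and 5 have no same-numbered partner and do not enter the difference.

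Bcl2 was also read beside the CD8 markers. The mean of Cd8a and Cd8b1 was 3.65 in exponential replicate 4, 8.28 to 8.66 in the other exponential arrays, 7.43 to 8.56 in the chronic arrays and 6.68 to 8.35 in wild type. Among these other exponential arrays the orders differed, with the lowest CD8 level in replicate 5 and the lowest Bcl2 in replicate 1. In the chronic phase replicate 3 had both the lowest Bcl2 and the lowest CD8 level. The highest chronic Bcl2 was in replicate 2 and the highest chronic CD8 level in replicate 1. In wild type replicate 1 had both the highest Bcl2 and the highest CD8 level, while Bcl2 was lowest in replicate 3 and the CD8 level in replicate 2. Wild-type replicate 1 held 8.31 for Cd8a, 8.38 for Cd8b1, 4.44 for Cd4 and 6.17 for Bcl2. The 7 leukemia arrays other than exponential replicate 4 held 6.71 to 8.20, 8.15 to 9.21, 1.79 to 2.59 and 6.53 to 7.58 for these genes. This pool was therefore near most leukemia arrays in Cd8a but not in Cd4. The 7 markers of helper (CD4) and regulatory T-cells had lower levels in leukemia, with list means of 2.56 to 3.75 in exponential, 2.52 to 3.33 in chronic and 5.15 to 5.28 in wild-type arrays. Myeloid markers (14 of 15 measured) had list means of 2.74 to 3.58 in exponential, 2.20 to 2.40 in chronic and 2.23 to 2.39 in wild-type arrays, highest in exponential replicate 4. Of them 1, Lyz2, was called by limma in the exponential phase, where it rose by 2.91 on the log2 scale (adjusted p = 0.0114). B-cell markers (9 of 10 measured) had list means of 2.86 to 4.48 in exponential, 2.46 to 3.41 in chronic and 2.75 to 3.59 in wild-type arrays. The exponential difference was above 0 for 7 of these 9, and 0 were called. Plasma cell markers (6 of 7 measured) had list means of 3.18 to 3.90 in exponential, 3.40 to 4.66 in chronic and 4.29 to 5.55 in wild-type arrays. Erythroid markers (10 of 14 measured) had list means of 2.64 to 3.54 in exponential, 2.68 to 4.41 in chronic and 3.73 to 4.2 in wild-type arrays, and 1 of them, the carbonic anhydrase gene Car1, was called in the exponential phase, where it fell by 6.11 on the log2 scale (adjusted p = 0.0114). T-cell and CD4 levels lay below wild type in both phases, and plasma cell and erythroid levels in the exponential phase. Myeloid levels lay above wild type in the exponential phase, and B-cell levels overlapped those of wild type in both phases. The part of cell selection and of other cells in the Bcl2 difference was not tested.

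Bcl2l1, which encodes the guardian BCL-XL, gave smaller differences. Its values were 3.02, 3.51, 3.44, 3.03 and 3.14 in exponential replicates 1 to 5, 3.29, 3.31 and 3.54 in the chronic arrays, and 3.12, 2.84 and 2.85 in wild type. All chronic arrays lay above wild type, and 3 of the 5 exponential arrays did. The log2 difference was 0.30 (SE 0.14, adjusted p = 0.565) for exponential and 0.45 (SE 0.14, adjusted p = 0.261) for chronic against wild type.

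Mcl1, a guardian whose short-lived protein depends on steady synthesis, lay at almost the same level in the 3 groups. It averaged 7.80 ± 0.42 (SD, n = 5) over exponential arrays, 7.92 ± 0.30 (SD, n = 3) over chronic arrays and 7.85 ± 0.07 (SD, n = 3) over wild-type pools. The single low array was exponential replicate 4 at 7.06, the remaining exponential arrays giving 7.82 to 8.08. The log2 difference was -0.05 for exponential (95% interval -0.54 to 0.43) and 0.07 for chronic against wild type (95% interval -0.32 to 0.45). Shifts within these bounds are compatible with the arrays. Without exponential replicate 4 the first turned to 0.13 (adjusted p = 0.767).

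The effector Bak1 was the one member with every leukemia array above every wild-type array. Its values were 3.31, 3.08, 3.29, 3.31 and 3.35 in the exponential arrays, 3.21, 3.09 and 3.02 in the chronic arrays, and 2.32, 2.96 and 2.75 in wild type. The separation was narrow, since the lowest leukemia array (chronic replicate 3) and the highest wild-type pool (replicate 2) were neighbors. The mean was 3.27 ± 0.11 (SD, n = 5) over exponential arrays, 3.10 ± 0.10 (SD, n = 3) over chronic arrays and 2.68 ± 0.33 (SD, n = 3) over wild-type pools. The log2 difference was 0.59 (SE 0.14, adjusted p = 0.156) for exponential, 0.42 (SE 0.18, adjusted p = 0.426) for chronic, and 0.53 (SE 0.13, adjusted p = 0.0943) for all leukemias, none of them called by limma. Exponential replicate 4, the low array for Bcl2 and Mcl1, was not low for Bak1.

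Wild-type replicate 1 set much of the Bak1 difference. Without it, the log2 difference of all leukemias from wild type was 0.35 (adjusted p = 0.435), and without wild-type replicate 2 it was 0.67 (adjusted p = 0.0515). No setting brought Bak1 past the adjusted threshold, and leaving out exponential replicate 4 gave 0.51 (adjusted p = 0.0977).

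**Figure D2:**
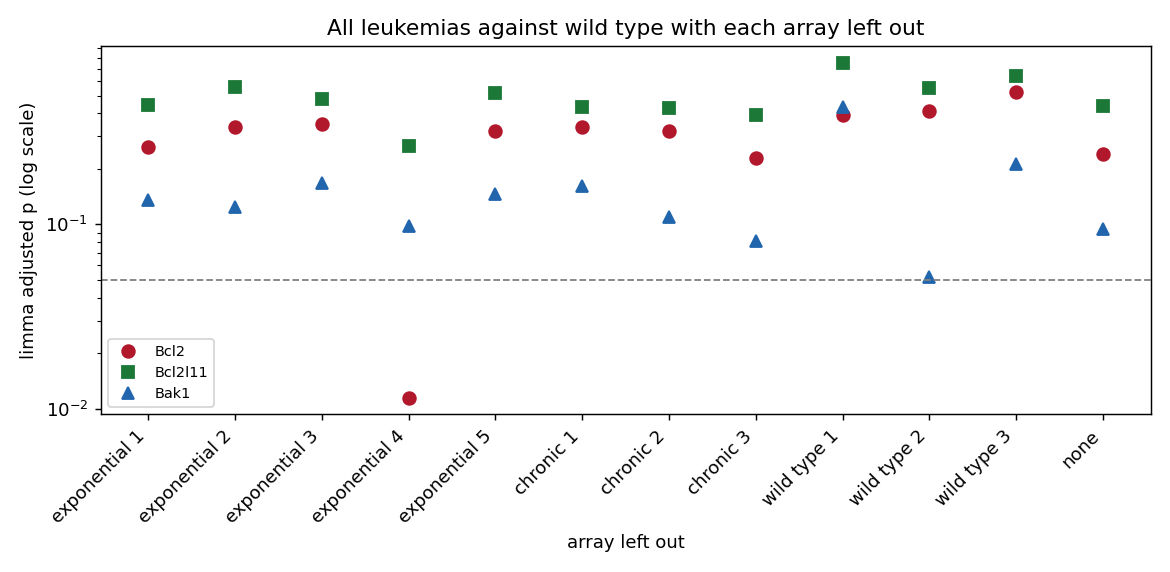
Adjusted p of limma (vertical axis, log scale) for Bcl2, Bcl2l11 and Bak1 in all leukemias against wild type, with the array named on the horizontal axis left out, or none; the dashed line is the threshold of 0.05. Of these values only that of Bcl2 without exponential replicate 4 (0.0115) lies under the line, and Bak1 without wild-type replicate 2 lies just above it (0.0515).

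Among the BH3-only genes, Bcl2l11 encodes BIM, which binds every guardian and drives the death of T-cells deprived of cytokine. Bcl2l11 read 3.86, 4.63, 3.69, 3.28 and 4.22 in exponential replicates 1 to 5, 3.47, 5.14 and 3.63 in chronic replicates 1 to 3, and 3.30, 3.33 and 3.05 in wild type. Again 7 of 8 leukemia arrays lay above wild type, and exponential replicate 4 fell inside its range. The leukemias differed widely among themselves, with an SD of 0.51 (n = 5) in the exponential phase and 0.92 (n = 3) in the chronic phase, against 0.15 (n = 3) in wild type. Each wild-type array pooled 3 spleens and pooling is not stated for the leukemia arrays, so these SDs may not be comparable. The log2 difference was 0.71 (SE 0.26, adjusted p = 0.390) or 1.63-fold for exponential and 0.85 (SE 0.40, adjusted p = 0.511) or 1.8-fold for chronic against wild type. Without chronic replicate 2 the chronic difference was 0.32 (adjusted p = 0.590), and this array also had the highest erythroid list mean of all, 4.41. Without exponential replicate 4 the exponential difference was 0.87 (adjusted p = 0.0935) and still not called.

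Pmaip1, which encodes the MCL1 antagonist NOXA, did not follow Bcl2l11. Its values were 4.61, 4.28, 5.66, 3.64 and 4.58 in the exponential arrays, 3.77, 3.49 and 4.34 in the chronic arrays, and 4.01, 4.35 and 4.06 in wild type. Exponential replicate 3 was highest and chronic replicate 2, the array with the most Bcl2l11, lowest. The log2 difference between the exponential and chronic phases was 0.69 (SE 0.39, adjusted p = 0.830), the largest of any member between the phases, with overlapping groups. Without exponential replicate 4, its lowest exponential array, it was 0.92 (adjusted p = 0.645).

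Bbc3, which encodes the p53-induced PUMA, lay between 2.63 and 3.22 in the exponential phase, 2.54 and 2.80 in the chronic phase and 2.57 and 3.05 in wild type. Bid, whose protein links death receptors to mitochondria, and Bad, which is held inactive by AKT phosphorylation, averaged below the median of all rows. Bid lay between 2.07 and 2.40 in exponential, 1.74 and 2.6 in chronic and 1.87 and 2.58 in wild-type arrays. Bad lay between 1.89 and 2.39 in exponential, 2.07 and 2.49 in chronic and 2.01 and 2.50 in wild-type arrays. All 3 genes overlapped between groups, with log2 differences from wild type between -0.06 and 0.15; at such low signals a difference may be understated.

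**Figure D3:**
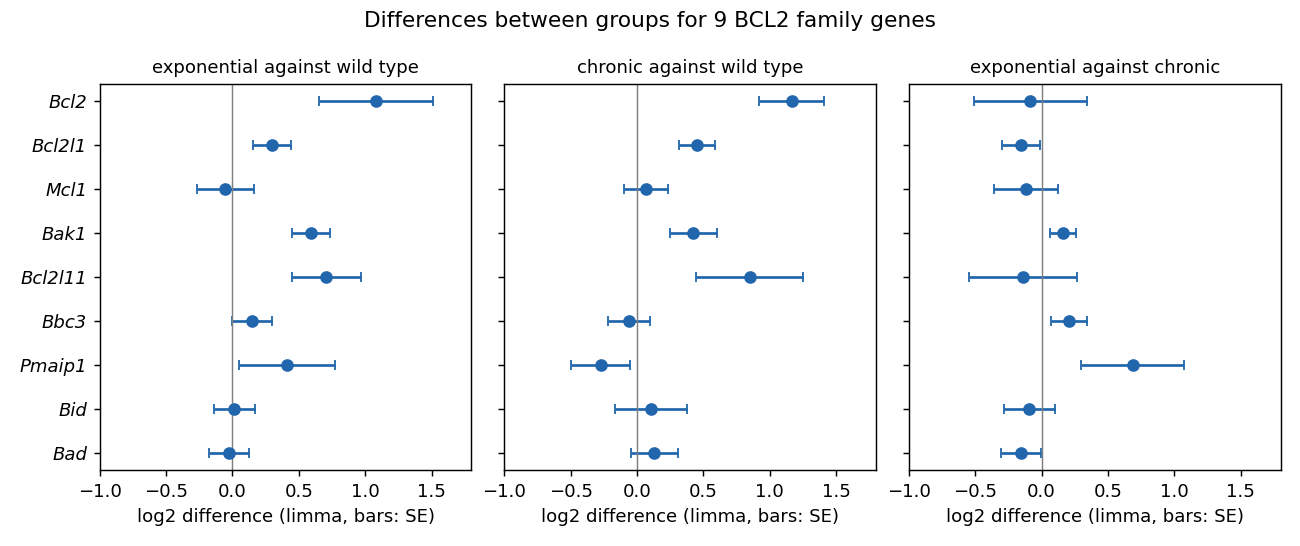
Log2 differences (horizontal axes, limma estimate with SE bars) of the 9 genes (rows) for exponential against wild type, chronic against wild type and exponential against chronic. Bcl2 has the largest difference in both comparisons with wild type (1.08 and 1.17), and Pmaip1 the largest between the phases (0.69).

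Counted over the family, 0 of 9 members were called by limma in any comparison at an adjusted p under 0.05 and a fold of at least 1.5. The share of all genes called was 0.416% for exponential and 0.456% for chronic against wild type, 0.722% for all leukemias against wild type and 0% for exponential against chronic. At an unadjusted p under 0.05, 3 members were higher in the exponential phase (Bcl2, Bcl2l11 and Bak1), where 4.79% of all genes were, and 3 in the chronic phase (Bcl2, Bcl2l1 and Bak1), where 6.36% were. For all leukemias these 4 genes were higher at that threshold, against 5.47% of all genes. Between the phases 0 members were higher in the exponential phase at that threshold, against 2.75% of all genes. The methods' t-test at its own threshold of fold and unadjusted p passed Bak1 in the exponential phase, where 477 of 19937 genes passed. It passed Bcl2 in the chronic phase, where 623 genes passed, and over all leukemias, where 543 did. After Benjamini-Hochberg adjustment it passed 0 members.

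The counts of separated groups read likewise. In the chronic phase 4 of 9 members (Bcl2, Bcl2l1, Bcl2l11 and Bak1) had every array above every wild-type array, against 8.28% of all genes. In the exponential phase 1 did (Bak1), against 3.28%, and without exponential replicate 4 there were 3 (Bcl2, Bcl2l11 and Bak1), against 5.23%. Over all leukemias 1 member did, against 1.67%, or 3 without that array, against 2.38%. Between the phases 0 members had every exponential array above every chronic array, against 2.3% of all genes. The comparisons with wild type share their control arrays, so their counts are not independent.

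The median log2 difference of the members from wild type was 0.30 for exponential and 0.13 for chronic, where the medians over all genes lay at 0.01 and -0.0017. The difference was above 0 for 7 of 9 members in each. The exponential median without replicate 4 was 0.35, with 9 of 9 members above 0. By role, 2 of 3 guardians (Bcl2 and Bcl2l1) and the effector Bak1 had higher means in both phases, and among the BH3-only genes Bcl2l11 had the largest difference.

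The comparison of the phases asked whether the family differed between chronic and exponential arrays. Phase, average age and the share of tumor cells differed together, so they cannot be told apart here. Bcl2 differed by -0.09 (95% interval -1.04 to 0.87), Bcl2l11 by -0.14 (95% interval -1.06 to 0.77), Bak1 by 0.16 (95% interval -0.06 to 0.39) and Bcl2l1 by -0.15 (95% interval -0.48 to 0.17) on the log2 scale. Neither phase could be ordered above the other for any member, and for Bcl2 and Bcl2l11 the intervals include a halving and end short of a doubling. Without exponential replicate 4 Bcl2 differed by 0.26 and Bcl2l11 by 0.02.

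The genes with the pattern most like a member over the 11 arrays were ranked by Pearson correlation among 10198 genes above the median of all rows, for the 5 members with a range of at least 1. For Bcl2 they were Il2rb (r = 0.971), Atp8b4 (0.962) and Lpin1 (0.957), for Bcl2l11 Kbtbd11 (0.883), Rnf6 (0.879) and Rec114 (0.876), and for Bak1 Snrpb2 (0.971), Lsm8 (0.947) and Rngtt (0.940). For Mcl1 they were Tiparp (0.949), Spata6 (0.938) and Ppm1m (0.902), and for Pmaip1 Gm32592 (0.901), Plaur (0.870) and Tubb6 (0.866). The points share their groups, and the highest of so many candidates is high by selection. Leaving out exponential replicate 4 lowered the Mcl1 values to 0.838, 0.753 and 0.813 and left that of Il2rb with Bcl2 at 0.965.

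Il2rb, which encodes the beta chain shared by the receptors for IL-2 and IL-15, read 6.18, 7.18, 6.61, 5.11 and 7.02 in exponential replicates 1 to 5, 6.56, 6.69 and 6.18 in the chronic arrays, and 6.22, 5.44 and 5.32 in wild type. Its arrays fell in nearly the order of Bcl2, with exponential replicate 2 highest in both and exponential replicate 4 lowest for Il2rb and next to lowest for Bcl2. The log2 difference of Il2rb from wild type was 0.76 for exponential (adjusted p = 0.646) and 0.82 for chronic (adjusted p = 0.272). Leaving out exponential replicate 4 gave 1.09 for exponential (adjusted p = 0.109). Between the members themselves, Bcl2 correlated with Bcl2l11 at r = 0.77 and with Bcl2l1 at 0.75 over the 11 arrays, and at 0.76 for both without exponential replicate 4, as a description.

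**Figure D4:**
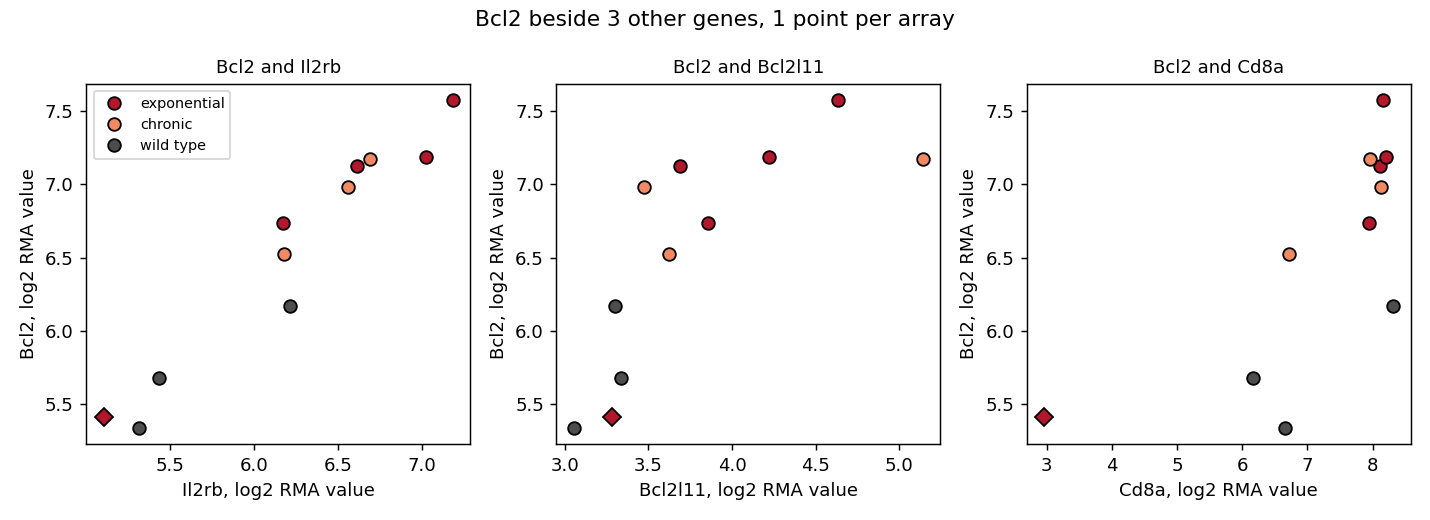
Log2 RMA value of Bcl2 (vertical axes) against that of Il2rb, Bcl2l11 and Cd8a (horizontal axes), 1 point per array, colored by group; the diamond is exponential replicate 4. Bcl2 and Il2rb fall along 1 line in all groups, while Cd8a at 2.96 sets exponential replicate 4 apart and wild-type replicate 1 combines a Cd8a of 8.31 with a Bcl2 of 6.17. The Cd4 value of that pool, not shown here, was 4.44.

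The wider pathway was read from lists of further genes. Of 18 other BCL2 relatives 14 were measured and 0 were called in any comparison, with median log2 differences from wild type of -0.05 for exponential and -0.09 for chronic. Bcl2a1c, a member of the A1 guardian cluster whose near-identical copies can share signal, averaged 2.68 ± 0.37 (SD, n = 5) in exponential, 1.96 ± 0.24 (SD, n = 3) in chronic and 2.88 ± 0.10 (SD, n = 3) in wild-type arrays (chronic against wild type -0.92, adjusted p = 0.0605). Downstream of the effectors, 20 of 22 genes were measured and 0 were called. Cycs, which encodes the cytochrome c released by BAX and BAK, averaged 8.42 ± 0.23 (SD, n = 5) in exponential, 8.69 ± 0.30 (SD, n = 3) in chronic and 7.95 ± 0.35 (SD, n = 3) in wild-type arrays. The outer membrane channel gene Vdac2, whose protein binds BAK, differed from wild type by 0.20 for exponential and 0.50 for chronic (adjusted p = 0.782 and 0.197).

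Upstream, of 13 measured survival cytokine receptor and STAT genes 1 was called, the IL-2 receptor alpha gene Il2ra, which fell by 1.77 on the log2 scale in the exponential phase (SE 0.20, adjusted p = 0.0114) and by 1.85 in the chronic phase (adjusted p = 0.0394). Il2ra also marks regulatory T-cells, which the pan-T-cell controls can hold. Of 12 FOXO and AKT pathway genes 0 were called. Akt1, whose kinase is bound by TCL1A and phosphorylates BAD and FOXO proteins, averaged 2.96 ± 0.18 (SD, n = 5) in exponential, 2.71 ± 0.05 (SD, n = 3) in chronic and 2.38 ± 0.07 (SD, n = 3) in wild-type arrays, with limma adjusted p of 0.0875 and 0.317 for the phases. Every leukemia array lay above wild type for Akt1, as for 1.67% of all genes. Its wild-type mean lay near the median of all rows, 2.30. Of 7 genes for MCL1 turnover 0 were called, and Huwe1, a ubiquitin ligase for MCL1, differed by -0.41 for exponential and -0.56 for chronic (adjusted p = 0.394 and 0.515).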

How the data were processed

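Expression was measured on 11 Affymetrix Mouse Gene 1.0 ST arrays, 1 for each splenic T-cell RNA. The log2 values deposited by the authors had been background-corrected (RMA) and quantile-normalized with the R package affy, whose version the sources used here do not give. Values ran between 0.775 and 13.5. Quantile normalization hides a shift of all genes. No detection calls were used. Precision is limited by how few arrays each group holds.

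Of 34760 rows, 21640 carried 1 gene symbol in the platform annotation, 1321 several and 11799 none. Rows with 1 symbol were kept, with the highest-mean row for each of the 954 genes with several rows, which left 19937 genes. Each measured member had a single row. Groups were taken from the titles of the labels. Whether a leukemia array was 1 mouse is not stated, so p-values measure the spread between arrays.

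Each comparison was fitted by lmFit and eBayes of limma 3.58.1 (R 4.3.3) on the arrays of its groups, following the separate analyses of the study. Benjamini-Hochberg adjustment ran over the 19937 genes, and calls required an adjusted p below 0.05 together with a fold of 1.5 or more. The fits were tested on simulated data. Replicate numbers did not pair the arrays. Alternatives were 1 fit over all groups, a replicate block, removal of the dimmest 30% of genes, cyclic loess, median centring, a robust variance trend, array weights, the t-test of the methods, row means, calls without a minimum fold, and leaving out single arrays. Other named genes and list medians were also computed without exponential replicate 4, a choice made after seeing the data. The 9 measured members are described. Of the other lists, the text names called genes and others among the 4 with the smallest p. Members and lists were chosen with earlier results of these data known.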

Additional observations from a re-analysis of the deposited data

Results flagged for a closer look

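In the exponential phase, the one group of 4 to 10 arrays, a single array lay far from the others for 2 of 9 members, where chance flags about 1 in 20 groups. Mcl1 read 7.06 in exponential replicate 4, against 7.82 to 8.08 in the other exponential arrays, a gap of 0.743 of the group's range (limit 0.71). Bak1 read 3.08 in exponential replicate 2, against 3.29 to 3.35 in the others, a gap of 0.754 of the range. Exponential replicate 4 is also the array with Cd8a at 2.96, and the part of cell type in its low Mcl1 was not tested.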

How the results depend on the processing

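Of 693 member values under the alternatives, 646 kept their sign and their side of the threshold, 41 changed sign, all of them uncalled values, and 6 passed it. With the methods' t-test at unadjusted p, 1 member passed in chronic, 1 in exponential and 1 in all leukemias against wild type, where 623, 477 and 543 of 19937 genes passed. The replicate numbers did not pair the arrays, since same-numbered chronic and wild-type arrays had deviations correlating at 0.18, -0.0075 and 0.121. With a replicate block 1 member (Bcl2, 1.29, adjusted p = 0.0249) was called in all leukemias, with 264 genes called in all, and 139 genes in exponential, against wild type. Exponential replicates 4 and 5 have no same-numbered partner and do not enter these block differences, so the Bcl2 call again came without exponential replicate 4. Leaving out arrays gave 0 to 1 members in exponential and in all leukemias against wild type, the 1 without exponential replicate 4. Genes called were 8 to 108 in chronic (91 with all arrays), 16 to 221 in exponential (83), 50 to 273 in all leukemias (144) and 0 to 2 in exponential against chronic (0). The lowest counts against wild type came without wild-type replicate 1 (chronic, all leukemias) or 2 (exponential), the highest without chronic replicate 3 or exponential replicate 4, and the 2 genes without chronic replicate 1. The t-test called 623, 477, 543 and 123 genes in chronic, exponential and all leukemias against wild type and exponential against chronic, and after adjustment 0, 4, 46 and 0, while a robust variance trend called 154 in chronic. The cause was not tested.

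Members near 0 changed sign. The replicate block draws its differences from replicates 1 to 3 alone, so exponential replicates 4 and 5 do not enter them. Under the replicate block exponential minus wild type was 0.12 for Mcl1, -0.0064 for Bid and 0.10 for Bad, exponential minus chronic was 0.25 for Bcl2 and 0.050 for Mcl1, and all leukemias minus wild type was 0.091 for Mcl1. Array weights gave 0.017 for Mcl1 and 0.037 for Bad in exponential and 0.029 for Mcl1 in all leukemias, 1 fit over all groups gave 0.0064 for Mcl1 in all leukemias, and cyclic loess gave -0.028 for Mcl1 in chronic. With each array left out, differences from wild type in chronic were -0.095 to 0.20 for Mcl1, -0.058 to 0.38 for Bid and -0.15 to 0.088 for Bbc3. In exponential they were -0.12 to 0.13 for Mcl1, -0.15 to 0.21 for Bid and -0.12 to 0.12 for Bad. In all leukemias they were -0.065 to 0.10 for Mcl1, -0.12 to 0.24 for Bid, -0.023 to 0.22 for Bbc3, -0.039 to 0.27 for Pmaip1 and -0.065 to 0.18 for Bad. Between the phases they were -0.28 to 0.26 for Bcl2, -0.25 to 0.065 for Mcl1, -0.45 to 0.39 for Bcl2l11 and -0.37 to 0.058 for Bid.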

Other observations

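Death receptor genes and p53 targets were read as further lists. Of 11 measured death receptor genes 1 was called. Cflar, which encodes the caspase-8 inhibitor FLIP, read 6.09, 6.23, 6.33, 6.26 and 6.18 in exponential replicates 1 to 5, against 6.88, 6.95 and 6.75 in wild type, and fell by 0.64 on the log2 scale (adjusted p = 0.0316 by limma). In the chronic arrays it read 5.89, 6.62 and 6.65, and the log2 difference from wild type of -0.47 was not called (adjusted p = 0.468). Exponential replicate 4 lay among the other exponential arrays for this gene.

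Of 19 measured p53 targets, the apoptosis-promoting gene Trp53inp1 was the single call. It fell by 1.94 in the exponential phase (adjusted p = 0.0013) and by 1.5 in the chronic phase (adjusted p = 0.0394), with 7.20 to 7.84 in exponential, 7.64 to 8.45 in chronic and 9.44 to 9.76 in wild-type arrays. The p53-induced members Bbc3 and Pmaip1 overlapped between these groups. Btg2 averaged 6.86 ± 0.81 (SD, n = 5) in exponential, 6.5 ± 0.87 (SD, n = 3) in chronic and 8.23 ± 0.27 (SD, n = 3) in wild-type arrays and was not called (adjusted p = 0.242 for exponential and 0.135 for chronic). The stress-response gene Sesn1 averaged 4.89 ± 0.20 (SD, n = 5) in exponential, 4.64 ± 0.16 (SD, n = 3) in chronic and 5.31 ± 0.17 (SD, n = 3) in wild-type arrays, also not called (adjusted p = 0.305 and 0.117). The DNA repair gene Xpc lay the other way, with 3.17 ± 0.26 (SD, n = 5) in exponential, 3.59 ± 0.32 (SD, n = 3) in chronic and 2.74 ± 0.16 (SD, n = 3) in wild-type arrays, and was not called (adjusted p = 0.381 and 0.117).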
